A study of Mus musculus with 16 samples.

Results

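The 6C3 libraries are the 2 ATAC-seq libraries, of 16 in the series, made from femur cells that were sorted under the label 6C3. They were compared with the 12 libraries of 6 other skeletal subsets, labelled Thy, Thy_6C3, CD105, CD24, CD24_CD29 and CD29. Each 6C3 library was set only against the 6 libraries that carry its own replicate number, and the 2 libraries sorted on CD45, a marker of blood-lineage cells, were left out. All 16 libraries came from 3-month-old mice of the strain PolG D257A/D257A, so every group carries the same allele and none is a wild type. The labels give neither the sorting gates nor which mice, or how many, stand behind a library. A p-value here therefore measures the spread between libraries, which may be technical. The comparison asks how the mitochondrial alleles of 6C3 cells differ from those of the other sorted skeletal cells.

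The 6C3 antigen is glutamyl aminopeptidase, the product of Enpep, an enzyme of the cell surface known from stromal cells of the bone marrow and from early B cells. The labels' names could not be checked against Enpep or against the genes of the other markers, because the tables analysed hold positions of the mitochondrial genome only. Polg encodes the catalytic subunit of the mitochondrial DNA polymerase. With D257A the enzyme cannot proofread, so base changes gather in the many copies of this genome that each cell holds. A change may stay rare among the copies or spread to a large share of them, and its share is its allele fraction. Transitions swap A with G or C with T, and are the usual product of a copying error, while transversions swap a purine with a pyrimidine. T>C and A>G name the same change of a base pair, read on opposite strands.

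The 6C3 libraries were alike in depth, with a mean coverage of 30165 counts per position in replicate 1 and 30188 in replicate 2. The other libraries ran from 6569 in CD24_CD29 replicate 2 to 77252 in CD29 replicate 1, and no position of any library had fewer than 2391. At the mean coverage, 0 counts allow a fraction of up to 0.00995% in 6C3 replicate 1 and 0.00994% in replicate 2, for counting error only. Thy replicate 2 stood apart, with a mean A>C and T>G fraction of 0.720% against 0.0835% to 0.133% in the other libraries of replicate 2. Some values that rest on it are also given without it, and other ranges of replicate 2 include it.

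Alleles are written as the reference base, the position in the mitochondrial sequence of GRCm38, and the base read instead. Sequences of 21 bases around 9 alleles, from the reference bases of the deposited tables, are shown because the results on single alleles turn on them. They read 5′ to 3′ on the reference strand, and the capital is the reference base that the allele replaces. In the first 5 alleles 6C3 had the highest fraction of the 7 subsets in both replicates, the next 2 were near the top in both, and in the last 2 it had the lowest.
A4524G in ND2, chrMT:4514-4534: actctactcaAcctcataatc
T6078C in COX1, chrMT:6068-6088: cctcccaggaTttggaattat
T6791C in COX1, chrMT:6781-6801: tatcgtatgcTtcaacaaatt
T13052C in ND5, chrMT:13042-13062: aaccgcgtttTccccccctaa
T3607C in ND1, chrMT:3597-3617: gatcaacttaTacatcttcta
T8313C in ATP6, chrMT:8303-8323: cccacttcctTccacaaggaa
A8298G in ATP6, chrMT:8288-8308: taaaaagctcActtgcccact
C10658T in ND4, chrMT:10648-10668: taattgccctCatcttaatcc
C5163A between TrnN and TrnC, chrMT:5153-5173: caatctacttCtaccgccgaa

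By mean fraction, the kind of change in which 6C3 stood out was the transition T>C with its complement A>G. Averaged over the 10310 positions with a reference T or A, its fraction in 6C3 was 0.263% in replicate 1 and 0.216% in replicate 2. In replicate 1 the other libraries had 0.130% in Thy, 0.134% in Thy_6C3, 0.142% in CD24_CD29, 0.144% in CD24, 0.145% in CD105 and 0.178% in CD29, all below 6C3. In replicate 2 they had 0.136% in Thy_6C3, 0.138% in CD24_CD29, 0.145% in CD24, 0.148% in CD105, 0.174% in Thy and 0.218% in CD29. CD29 thus lay just above 6C3 in replicate 2, and the other 5 lay below it. The means of the others were 0.145% ± 0.0170 and 0.160% ± 0.0315 (SD, n = 6 libraries each), so 6C3 was 1.81 and 1.35 times as high.

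The mean difference was 0.0870 percentage points (exact permutation p = 0.0408, two-sided, over the 49 choices of 1 library per replicate). After adjustment over the 6 pairs of base changes the exact permutation p was 0.245, so the difference did not pass. The smallest p this design can give is 0.0204, and when 1 of 6 tests alone reaches it, adjustment leaves 0.122. Without Thy replicate 2 the difference was 0.0884 percentage points (exact permutation p = 0.0476, adjusted 0.286). Without CD29 replicate 2 it was 0.0928 (exact permutation p = 0.0238, adjusted 0.143). Each 6C3 library alone gave the same direction, with a difference of 0.118 in replicate 1 and 0.0561 in replicate 2. Depth moved with this fraction in part. In replicate 2 the 2 deepest libraries, CD29 at 36822 counts per position and 6C3 at 30188, had the 2 highest fractions, and the other 5 had a mean coverage of 6569 to 23690. In replicate 1 the deepest library, CD29, was the highest of the others, while CD105, deeper than 6C3 at 39931 counts per position, had a fraction of 0.145%. Thy, at 28920 counts per position against 30165 in 6C3, had the lowest fraction of replicate 1, 0.130%. The part of depth in the difference was not tested.

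**Figure D1:**
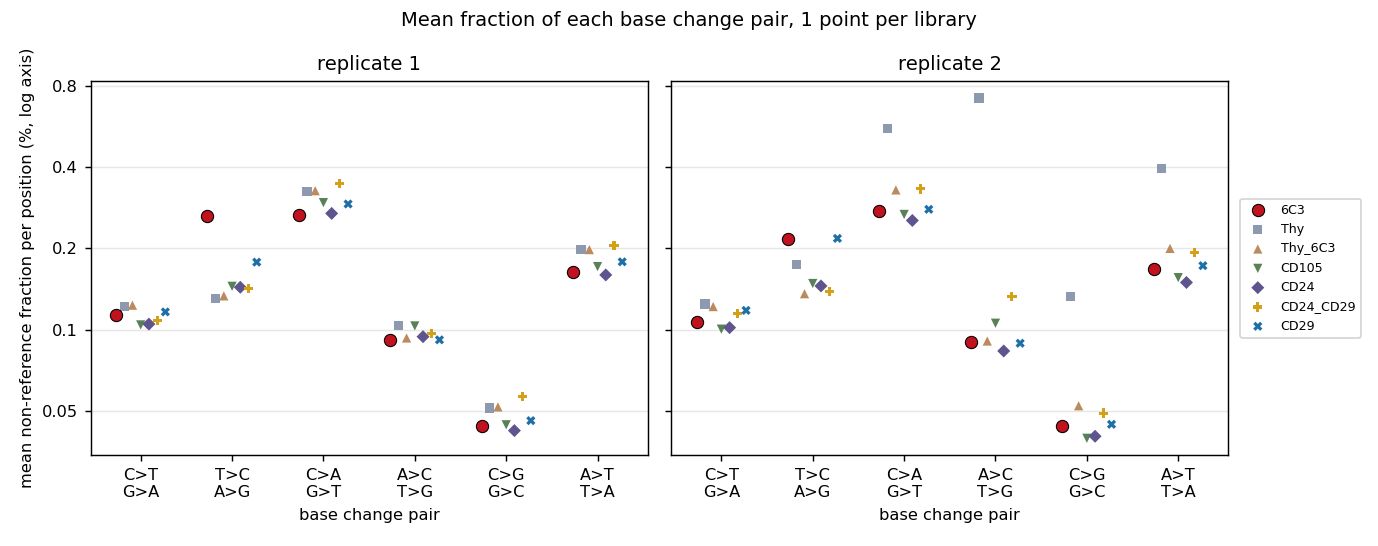
Mean non-reference fraction per position (%, log axis) of the 6 complementary pairs of base changes in the 14 libraries, 1 point per library, replicate 1 on the left and replicate 2 on the right. In T>C and A>G, 6C3 (0.263% and 0.216%) lies above all other points of replicate 1 and beside CD29 (0.218%) at the top of replicate 2; in the other 5 pairs it lies among or below the other subsets.

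None of the other 5 pairs of base changes passed the test (adjusted exact permutation p from 0.441 to 0.633). C>T and G>A, the other transitions, had 0.114% and 0.107% in 6C3, against 0.104% to 0.123% and 0.101% to 0.125% in the others. C>A and G>T, transversions, had 0.266% and 0.276% in 6C3. The value of replicate 1 was the lowest of the 7 subsets, where the others ran from 0.270% to 0.348%. That of replicate 2 lay within the range of 0.254% to 0.555%, or to 0.332% without Thy replicate 2. For A>C and T>G the 6C3 values were 0.0921% and 0.0900%, for C>G and G>C 0.0442% and 0.0442%, and for A>T and T>A 0.163% and 0.168%. In these 3 pairs the 6C3 libraries had rank 6 of 7 from the highest in replicate 1 and rank 5 in replicate 2.

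T>C and A>G were both high in 6C3, and T>C more so. The T>C fraction was 0.321% and 0.261% in 6C3, against 0.151% to 0.212% and 0.158% to 0.265% in the others. For A>G it was 0.216% and 0.178%, against 0.113% to 0.150% and 0.118% to 0.179%. The ratio of T>C to A>G was 1.48 and 1.46 in 6C3, where the others had 1.27 to 1.41 in replicate 1 and 1.34 to 1.49 in replicate 2. The median over positions, which single high alleles cannot move, was 0.217% and 0.169% for the pair in 6C3, above every other library of its number (0.0590% to 0.142% and 0.0462% to 0.163%). Measured this way, a choice made after seeing the data, the difference of 0.1002 percentage points was the largest of the 49 choices (exact permutation p = 0.0204, two-sided, not adjusted). By median, 6C3 was also near the top for C>T and for G>A, with rank 2 in replicate 1 and rank 1 in replicate 2. C>T had 0.0589% and 0.0592% in 6C3, or 1.37 and 1.64 times the mean of the others. G>A had 0.0400% and 0.0408%, or 1.44 and 1.63 times, against 2.44 and 1.75 times for T>C and A>G. The medians of C>T and G>A were not tested. As a share of all non-reference bases, T>C and A>G made up 34.5% and 29.9% in 6C3 and 18.1% to 25.0% and 9.88% to 29.6% in the others. Without Thy replicate 2 the range of replicate 2 began at 18.4%.

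The higher fraction was seen whatever the bases on either side. Over the 16 contexts of T>C and the 16 of A>G, 6C3 replicate 1 was 1.47 to 2.04 times the mean of the others and the highest of 7 in all 32. In replicate 2 it was 1.22 to 1.49 times the mean, the highest in 15 of 32 and first or second in all 32. Over the 4681 positions with a reference T, the T>C fractions of the 2 6C3 libraries, with fractions over 1% set to 1%, correlated at r = 0.677. Among the 49 pairs of libraries with different numbers this was the highest, followed by CD105 replicate 1 with 6C3 replicate 2 at 0.646 and by the 2 CD105 libraries at 0.622. 6C3 replicate 1 correlated more closely with CD105 (0.734) and CD29 (0.6995) of its own number than with the other 6C3 library, and 6C3 replicate 2 with CD105 of its own number (0.729). The 2 libraries of CD24_CD29, the shallowest subset, had 0.196. Positions share library and depth, and the correlations were not corrected for counting error, so they only describe these libraries.

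The T>C and A>G alleles that made the difference were at low fractions. Between 0.5% and 1%, 6C3 replicate 1 had 1337 of them with 5 or more counts, against 248 to 488 in the others. In replicate 2 it had 702, against 306 in CD105, 368 in Thy, 429 in CD24, 455 in Thy_6C3, 456 in CD24_CD29 and 813 in CD29. From 1% to 5% 6C3 was not the highest of 7 in either replicate. From 1% to 2% 6C3 replicate 1 had 65, second to CD24_CD29 with 103, where the remaining libraries had 20 to 44. In replicate 2 it had 42 in this band, rank 4 of 7 (others 36 to 124). From 2% to 5% the 6C3 libraries had 5 and 9, against 2 to 7 and 10 to 30. For C>T and G>A the band from 0.5% to 1% held 90 alleles in 6C3 replicate 1, rank 6 of 7 (others 45 to 187), and 67 in replicate 2, the lowest of 7 (others 70 to 231). In lower bands 6C3 was near the top for these changes as well. From 0.1% to 0.5% it had 1786 and 1746, rank 2 in both replicates (others 1058 to 1807 and 937 to 1793). From 0.02% to 0.1% it had 2343, rank 2, and 2517, rank 1 (others 928 to 2707 and 241 to 2386). Reaching 5 counts in these bands depends on depth. With alleles of 1% or more left out, T>C and A>G averaged 0.255% and 0.209% in 6C3, the highest of 7 in both replicates (0.125% to 0.173% and 0.116% to 0.207% in the others).

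**Figure D2:**
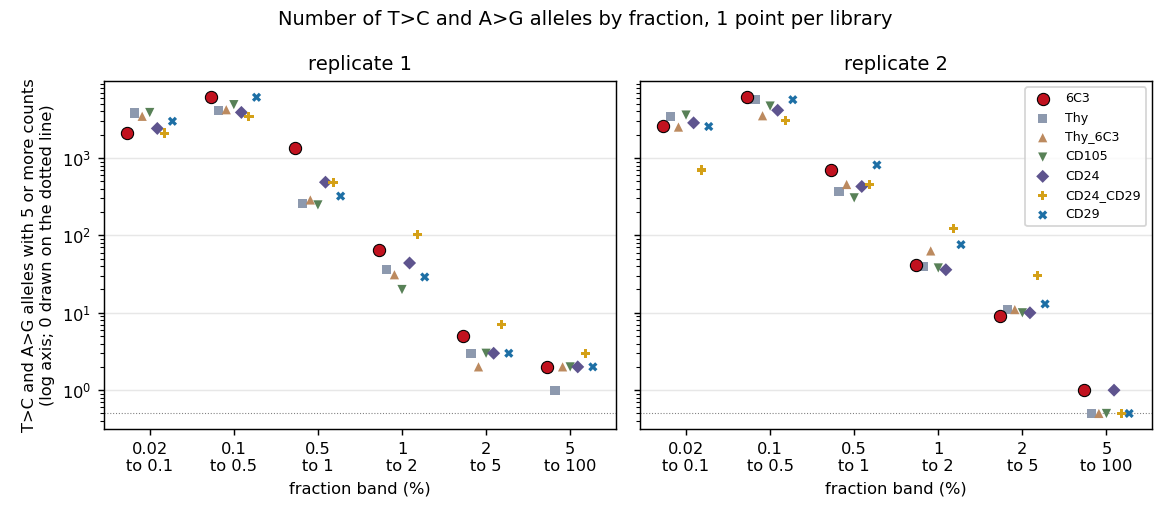
Number of T>C and A>G alleles with 5 or more counts (log axis, 0 drawn on the dotted line) in 6 bands of allele fraction (%), 1 point per library, replicate 1 on the left and replicate 2 on the right. 6C3 has 1337 alleles between 0.5% and 1% in replicate 1, where no other library has more than 488, and 702 in replicate 2, where CD29 has 813; from 1% upward it lies among or below the other points.

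The difference ran through the whole mitochondrial genome. In replicate 1 the T>C and A>G fraction of 6C3 was the highest of the 7 subsets in all 38 genes and regions, at 1.57 to 2.14 times the mean of the others. In replicate 2 it was 1.21 to 1.55 times as high, the highest in 17 of the 38 and first or second in 37. The exception was the control region, which holds the promoters and the origin of heavy strand replication, with 0.108% against 0.0661% to 0.115%. These regions share their libraries, so their number adds no replicates.

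Among the 7 subunits of complex I, which takes electrons from NADH, the pooled 6C3 fraction of T>C and A>G was 0.267% and 0.218% (others 0.135% to 0.181% and 0.138% to 0.218%). For CYTB, the cytochrome b of complex III, it was 0.255% and 0.218%, above all others in both replicates (0.128% to 0.164% and 0.135% to 0.196%). The 3 subunits of complex IV, the cytochrome c oxidase, had 0.285% and 0.232%, and the ATP synthase subunits ATP6 and ATP8 had 0.288% and 0.229%. In the genes for the parts of the mitochondrial ribosome and its transfer RNAs the values were alike, with 0.269% and 0.226% for the ribosomal RNAs and 0.267% and 0.214% for the 22 transfer RNAs. TrnS1, a serine transfer RNA gene, had the highest single value, 0.397% and 0.322%, and was also the highest gene on average in the others, at 0.253% and 0.245%. The control region had the lowest values in 6C3, 0.133% and 0.108%, and the lowest mean in the others, 0.0739% and 0.0839%.

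The ratio to the other subsets was alike for alleles that change a protein and those that do not. Synonymous T>C and A>G alleles averaged 0.265% and 0.213% in 6C3, which was 1.79 and 1.36 times the mean of the others. Missense alleles averaged 0.281% and 0.232%, or 1.82 and 1.34 times, and alleles outside protein genes 0.244% and 0.202%, or 1.83 and 1.36 times. The major arc, the longer stretch between the replication origins, had 0.273% and 0.222%, and the minor arc 0.268% and 0.224%.

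**Figure D3:**
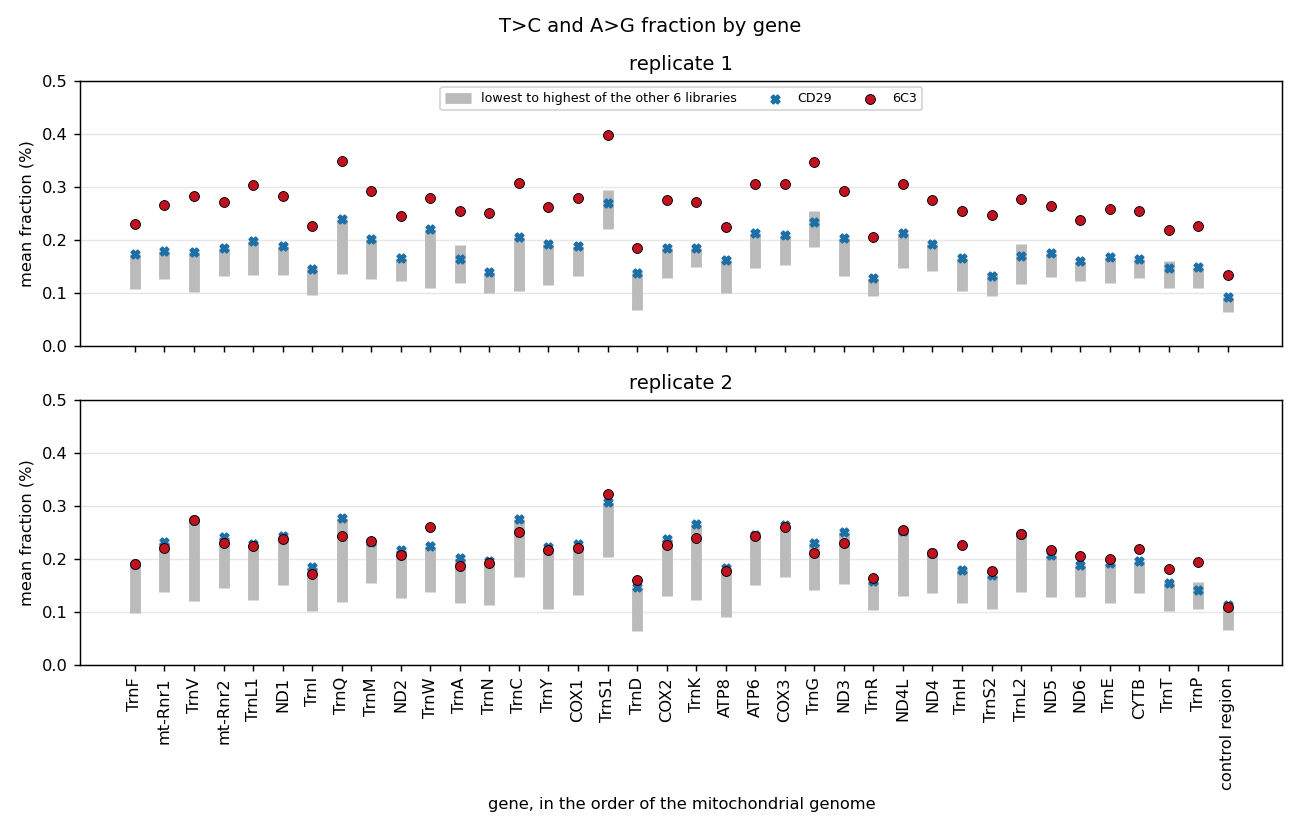
Mean T>C and A>G fraction (%) in each of the 38 genes and regions in the order of the mitochondrial genome, replicate 1 above and replicate 2 below; red points are 6C3, blue crosses CD29, and grey bars run from the lowest to the highest of the other 6 libraries. The red points lie above every bar in replicate 1 and at or near the top of the bars, beside CD29, in replicate 2.

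Counted allele by allele, 6C3 lay above all 6 other subsets in both replicates at 1210 of the 48897 possible alleles, a background of 2.47%. Of T>C and A>G alleles 1060 of 10310 did so, or 10.3%, against 125 of 5989 C>T and G>A alleles, or 2.09%, and 25 of 32598 transversions, or 0.0767%. 6C3 lay below all others in both replicates at 1003 alleles, a background of 2.05%, of which 980 were transversions and 8 were T>C or A>G. Thy replicate 2 is high in transversions, and without it 6C3 was the highest at 1729 alleles, among them 1297 T>C or A>G and 271 transversions. The alleles of a library share its errors, so these counts describe the libraries and carry no test.

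Single alleles were tested with edgeR's quasi-likelihood test, with the replicate number as a block, at the 350 alleles that reached 1% with at least 5 counts in at least 2 of the 14 libraries. No allele passed at an adjusted p of 0.05 (background 0%), and the smallest adjusted p was 0.517. Unadjusted, 11 alleles had a p under 0.05, which is 3.14% of those tested, and 10 of them were higher in 6C3. All 10 were T>C or A>G. DESeq2 with the same design called 2 alleles, both higher in 6C3, a background of 0.571%. The log2 odds of the non-reference base were higher in 6C3 at 130 of the 143 T>C and A>G alleles tested, with a median difference of 0.54. At the other 207 alleles they were higher at 71, with a median of -0.11, and the median over all 350 was 0.06. The 6C3 libraries count toward the filter of 1% in 2 libraries, and 19 of the 143 and 1 of the 207 passed only through them, so these counts are a description. With the filter set on the 12 other libraries alone, a choice made after seeing the data, edgeR called 0 of 330 alleles, with 7 under 0.05 before adjustment and a smallest adjusted p of 0.482. 6C3 was then higher at 111 of 124 T>C and A>G alleles, with a median of 0.51, and at 71 of the other 206.

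The 2 alleles that DESeq2 called were missense changes in subunits of the respiratory chain. A4524G changes amino acid 204 of ND2, a proton-pumping subunit of complex I, and is written N204S. It was at 0.585% (95% exact interval 0.483 to 0.702) in 6C3 replicate 1, against a lowest, median and highest value of 0.142%, 0.221% and 0.329% in the others. In replicate 2 it was at 2.18% (1.98 to 2.40), against 0.534%, 1.43% and 2.08%. Both 6C3 libraries lay above all others, but in replicate 2 CD24, at 2.08%, lay within the interval of 6C3. The log2 difference in odds was 1.11, with an adjusted p of 0.517 with edgeR and 0.00562 with DESeq2.

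T6078C (F251L) lies in COX1, the catalytic subunit of complex IV. It was at 0.494% (95% exact interval 0.421 to 0.574) in 6C3 replicate 1, where the others had 0.102%, 0.122% and 0.249% as lowest, median and highest. In replicate 2 it was at 1.37% (1.24 to 1.497), against 0.466%, 0.764% and 1.24%. Again 6C3 was the highest in both replicates, followed by CD29 in replicate 1 and by CD24 in replicate 2. The log2 difference was 1.29, with an adjusted p of 0.644 with edgeR and 0.0474 with DESeq2. Both alleles were higher in replicate 2 than in replicate 1 in all 7 subsets.

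The 4 alleles next in p were 3 synonymous ones and 1 in a transfer RNA gene, and none was called by either tool (edgeR adjusted p from 0.745 to 0.938). The 3 synonymous ones, T8313C, A8298G and A12176G, reached 1% in 1 other library each and were tested only because a 6C3 library reached it too. T8313C (L129L) and A8298G (S124S) lie 15 bases apart in ATP6, a membrane subunit of the ATP synthase. T8313C had 1.06% and 0.712% in 6C3, second to CD105 (1.21%) in replicate 1 and above the range of 0.101% to 0.550% in replicate 2. A8298G had 1.06% and 0.648% and was second to CD24 in both replicates (1.22% and 0.705%). A12176G (E145E) in the complex I gene ND5 had 0.789% and 1.06%, second to CD24 (1.09%) in replicate 1 and above 0.298% to 0.863% in replicate 2. A1085G in TrnV, the valine transfer RNA gene, had 0.736% and 0.583%, second to CD24 (1.03% and 1.05%) in both.

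Among the 350 alleles tested, 6C3 was above all other subsets in both replicates at 10, or 2.86%, all of them among the 143 T>C and A>G alleles, and 8 of the 10 passed the filter without the 6C3 libraries. Ranked by the difference of arcsine square root fractions, the first 4 were A4524G, T6791C, T13052C and T3607C. By log2 odds the difference at T6078C, also among the 10, was larger than at any of these 4. T6791C reached 1% in 1 other library and passed the filter only with 6C3. T6791C (A488A in COX1) was at 1.72% and 0.713% in 6C3. The lowest, median and highest of the others were 0.378%, 0.433% and 1.19% in replicate 1 and 0.282%, 0.385% and 0.702% in replicate 2, where CD29 came close. T13052C (F437F in ND5) was at 2.01% and 1.69%, against 0.794%, 1.15% and 1.39% and against 0.710%, 1.06% and 1.24%. It was the only one of these 4 alleles that 6C3 carried above 1% in both replicates. T3607C (M286T in ND1, the complex I subunit that borders its peripheral arm) was at 0.353% and 4.42%, against 0.0234%, 0.160% and 0.336% and against 2.16%, 2.94% and 3.88%. With edgeR the adjusted p of these 3 alleles ran from 0.938 to 0.969.

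6C3 was below all others in both replicates at 2 of the alleles tested, or 0.571%. C10658T (L164L in the complex I gene ND4) was at 15.97% (95% exact interval 15.6 to 16.4) in replicate 1, where the lowest, median and highest of the others were 16.02%, 18.8% and 21.7%. The lowest of these, in Thy, lay within the interval of 6C3. In replicate 2 it was at 0.375%, against 0.495%, 0.738% and 1.02% as lowest, median and highest. C5163A lies between TrnN and TrnC, where replication of the light strand starts, and was at 0.886% and 0.891%, against 0.955% to 1.07% and 0.942% to 1.48%. The adjusted p with edgeR was 0.969 for C10658T and 0.980 for C5163A.

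**Figure D4:**
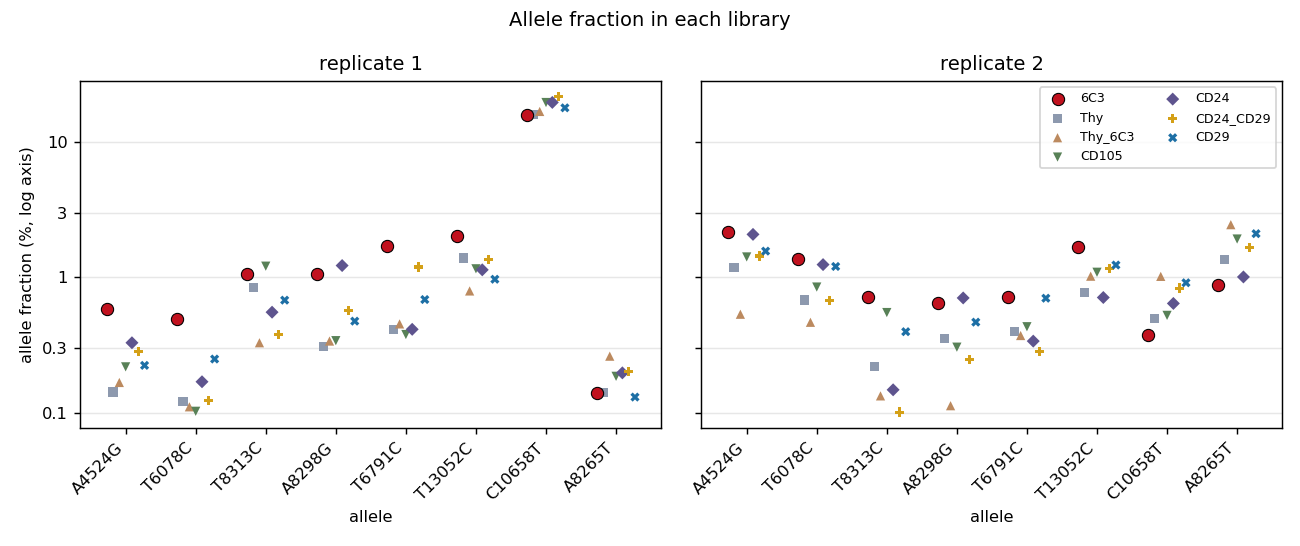
Allele fraction (%, log axis) of 8 named alleles in each of the 7 subsets, 1 point per library, replicate 1 on the left and replicate 2 on the right. 6C3 (red) is the top point in both panels for A4524G, T6078C, T6791C and T13052C, the top or second point for T8313C and A8298G, and the lowest for C10658T; for A8265T it is the lowest in replicate 2 (0.882%) and second lowest in replicate 1.

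Most of the highest alleles of each 6C3 library lay within the range of the other subsets of its number. In replicate 1 the 5 highest were G3079A (S110N in ND1) at 16.2%, C10658T, C7953T at 10.98%, T2674A at 9.63% and C7166T at 9.60%. C7953T lies where ATP8 and ATP6 overlap (S63L and F9F), T2674A in mt-Rnr2, the gene of the large ribosomal RNA, and C7166T in the complex IV gene COX2 (H52Y). Of these only C10658T was outside the range of the other subsets. In replicate 2 the highest was C11959T (S73L in ND5), at 24.9% (95% exact interval 24.4 to 25.3), above the range of 18.4% to 23.1%. C1051T in TrnV at 16.5%, C14024T (C16Y in ND6) at 8.16%, C3085T (S112L in ND1) at 6.90% and T13093A (M451K in ND5) at 6.45% lay within the ranges. Of these 10 alleles, 2 were abundant in both 6C3 libraries, namely C7166T at 9.60% and 6.18% and C14024T at 4.52% and 8.16%. C7953T was at 1.05% in 6C3 replicate 2. In the 6C3 library of the other number the remaining 7 were below 1%, from 0.105% for C1051T to 0.643% for T2674A.

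Of the alleles counted at 1% or more, 6C3 held 146 in replicate 1 and 119 in replicate 2. In replicate 1, 53 of the 146 were counted in all 6 other subsets as well, 65 in some and 28 in none. In replicate 2, 60 of the 119 were in all others, 48 in some and 11 in none. T>C and A>G made up 27 of the 28 and 10 of the 11 that were in 6C3 alone. Of all alleles counted in 6C3 they made up 72 of the 146 and 52 of the 119. In each other library between 2 and 167 alleles were counted there alone in replicate 1, and between 9 and 276 in replicate 2, or 2375 in Thy replicate 2. The 2 6C3 libraries shared 40 counted alleles, and 24 of these were counted in all 14 libraries. The other subsets shared 35 to 48 between their libraries.

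The alleles counted in 6C3 alone lay not far above 1%. In replicate 1 the highest were A12584G (G281G in ND5) at 1.29%, T13404C (L555L in ND5) at 1.26% and A3482G (G244G in ND1) at 1.253%. The highest other subset had 0.931%, 0.886% and 0.839%, and in replicate 2 all 3 were inside the range of the others. In replicate 2 the highest were A14188T, T8017C (F31L in ATP6) at 1.20% and A8802G at 1.12%. A14188T (N15I in CYTB) was at 1.46% (95% exact interval 1.34 to 1.59), against 0.221% to 0.786%, with Thy the highest, and it was the transversion of the 11. In replicate 1 it was also the highest of 7, at 0.424% (0.358 to 0.4975) against 0.281% to 0.388%. The highest of these, in CD24_CD29, lay within the interval of 6C3. A8802G (T66A in COX3, a complex IV subunit) was likewise the highest of 7 in both replicates. It had 0.871% against 0.0242% to 0.541% in replicate 1, and the others had 0.133% to 0.876% in replicate 2.

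No allele was counted in all 6 others and missing from 6C3 in replicate 1, and 2 were in replicate 2. A8265T (V113V in ATP6) was at 0.882% (95% exact interval 0.784 to 0.990) in 6C3, where the others had 1.008%, 1.80% and 2.46% as lowest, median and highest. A2060G in mt-Rnr2 was at 0.927% (0.807 to 1.06), against 1.17%, 1.32% and 2.99%. Both were present in 6C3 just under the threshold.

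The total of non-reference bases gave no difference that passed the test. Mutation load, the non-reference fraction summed over the 3 other bases and averaged over positions, was 0.484% in 6C3 replicate 1, the highest of 7 (others 0.405% to 0.470%), and 0.457% in replicate 2, rank 4 of 7 (others 0.385% to 1.11%). The difference was -0.0270 percentage points (exact permutation p = 0.939, two-sided, adjusted 0.980 over 6 library measures). Without Thy replicate 2 it turned to 0.0293 (exact permutation p = 0.262). Without T>C and A>G the load of 6C3 was 0.317% and 0.320%, against 0.314% to 0.380% and 0.293% to 1.004%, or up to 0.388% without Thy replicate 2. Alleles of 1% or more gave a load of 0.0196% and 0.0175%, of which the value of replicate 2 was the lowest of the 7 subsets (others from 0.0187%). Transitions made up 69.2% and 63.0% of the alleles of 1% or more in 6C3, against 53.5% to 70.0% and 3.79% to 69.8%, or from 57.6% without Thy replicate 2. None of the 6 library measures, coverage among them, passed the test (adjusted exact permutation p from 0.704 to 0.980).

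Nor did the load of alleles of 1% or more pass it in any gene group or kind of consequence (adjusted exact permutation p from 0.449 to 0.531 over 7 groups and 3 consequences). With the fractions summed per 1000 positions of a group, complex I genes of 6C3 had 20.9% and 17.6%, against 19.6% to 38.9% and 18.0% to 45.6% without Thy replicate 2. ATP synthase genes had 32.7% and 9.40%, and the latter was the lowest of 7 (others 12.5% to 36.4% without Thy replicate 2). The control region had 56.8% and 56.4%, where the means of the others were 59.5% and, without that library, 54.9%. Stop alleles, which cut a protein short, summed to 0.147% and 0.282% in 6C3, the lowest of 7 in replicate 1 and rank 5 in replicate 2.

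Taken over all alleles tested, 6C3 lay among the other subsets of its number. The distance used was the root mean square difference of arcsine square root fractions over the 350 alleles tested. Its mean to the other 6 was 0.0238 in replicate 1, where 2 subsets had a smaller mean, and 0.0264 in replicate 2, the smallest of 7. Less the mean distance among the other subsets this was -0.00185 in replicate 1 and -0.00694 in replicate 2. The mean difference of -0.00439 did not pass (exact permutation p = 0.204, two-sided). The nearest subset was CD105 in replicate 1, at 0.0178, and CD24 in replicate 2, at 0.0194, with CD105 next at 0.0213. CD24_CD29 was the farthest in both, at 0.0314 and 0.0358. By the mean distance of each subset to the other 6, CD105 had rank 1 from the nearest in replicate 1 and rank 2 in replicate 2. CD24_CD29, the shallowest subset, had rank 7 in both. A near CD105 and a far CD24_CD29 were thus not particular to 6C3. Thy_6C3, which shares the 6C3 label, had rank 4 of the 6 in both replicates, at 0.0241 and 0.0293.

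Coverage was higher on the major arc than on the minor arc in all 14 libraries, and the excess was smallest in the 2 6C3 libraries, by a difference that did not pass the test. In the division used here the major arc runs from COX1 to TrnP and the minor arc from TrnF to TrnW. The coverage of the major arc was 1.30 times that of the minor arc in both 6C3 libraries. The others had 1.33 in CD24 to 1.54 in CD24_CD29 in replicate 1 and 1.32 in CD24 to 1.42 in CD29 in replicate 2. Thus 6C3 had the lowest ratio of the 7 subsets in both replicates, with CD24 next. The difference from the mean of the others was -0.0898 (exact permutation p = 0.0816, two-sided, adjusted 0.163 over 2 measures), which did not pass. Its range was -0.111 to -0.0683 when single libraries were left out.

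Relative to the mean of the library, the 11 genes of the minor arc had 1.04 to 1.13 times the coverage of the others in 6C3 replicate 1 (median 1.07) and 0.986 to 1.05 times in replicate 2 (median 1.04). The medians over the 22 genes of the major arc were 0.968 and 1.001. At the far end of the major arc TrnP, the proline transfer RNA gene, had 1.21 and 1.22 in 6C3, below the means of 1.35 and 1.38 in the others, though above CD24 (1.05 and 1.05) and, in replicate 1, CD105 (1.10). CYTB had 1.23 and 1.21, against means of 1.33 and 1.31, and was likewise above CD24 (1.09 and 1.10) and, in replicate 1, CD105 (1.15). Deletions were not measured directly, and their part in this ratio was not tested. Coverage of the control region over the whole was 0.928 and 0.922, within the ranges of the others (0.839 to 1.05 and 0.840 to 1.02).

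**Figure D5:**
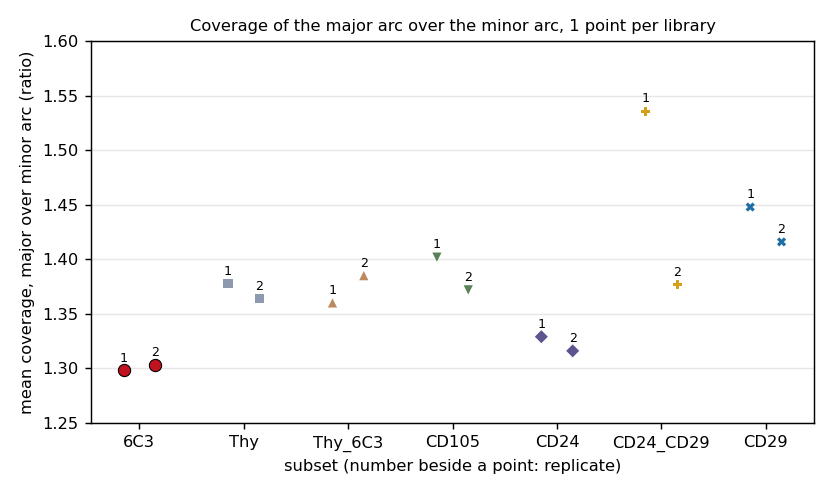
Mean coverage of the major arc over that of the minor arc (ratio, on an axis that does not start at 0) in the 7 subsets, 1 point per library with its replicate number beside it. Both 6C3 points lie at 1.30, below the other 12 points, of which the lowest is CD24 replicate 2 at 1.32.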

How the data were processed

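The deposited tables hold whole-number counts, which the authors left without normalization: coverage at each of 16299 mitochondrial positions, and how often each non-reference base was read there. The submitters' processing notes name bcl2fastq 2.20, cutadapt 2.10 and BWA 0.7.17, and the builds GRCm38 and mm10. How reads were filtered by quality, whether duplicates were removed and how nuclear copies of mitochondrial DNA were treated is not given in the sources used here. Low fractions may shift with any of them.

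An allele fraction was the count over the coverage at the same position. Genes came from RefSeq on GRCm38.p6, and amino acid changes from the vertebrate mitochondrial code. Library measures were compared with an exact permutation test, two-sided, over the 49 choices of 1 library per replicate number, adjusted by Benjamini-Hochberg within each family of measures. Alleles were tested with edgeR 4.0.16 (R 4.3.3) on pairs of non-reference and reference counts, with terms for library and subset and the replicate number as a block (6 residual degrees of freedom). The block was kept because the comparison is made within a number. Deviations from the subset means of same-numbered libraries correlated at 0.812 to 0.948 over the 21 pairs of subsets, across alleles. DESeq2 1.42.0, limma 3.58.1 on arcsine square root fractions, other filters and thresholds, and leaving out libraries were the alternatives. On simulated data with known changes the edgeR fit missed most of the changed alleles, and 0 calls do not show that no allele differs. The simulation used the alleles at 1% in at least 1 library, a single spread for all of them and no difference between replicates. It therefore does not measure how many changed alleles the main fit would miss. Intervals are exact (Clopper-Pearson, 95%), and intervals and limits of 0 (3 counts) cover counting error only. Tables and figures were made with pandas 2.3.3, scipy 1.17.1, numpy 2.4.6 and matplotlib 3.10.9 under Python 3.11.15.

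Named alleles were the 6 with the smallest p, the 5 highest of each 6C3 library, the 3 highest counted in 6C3 alone per number, up to 3 missing from 6C3 alone, and the 4 with the largest difference in each direction where 6C3 lay above or below all others in both numbers. The comparison, the lists and the tests were chosen with earlier results of these data known.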

Additional observations from a re-analysis of the deposited data

How the results depend on the processing

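Without a replicate block the T>C and A>G difference was 0.0870 percentage points (exact permutation p = 0.0220, adjusted 0.132), edgeR again called 0 alleles (smallest adjusted p = 0.999, with 5 alleles under 0.05 before adjustment), and no call of the library measures changed. With single libraries left out the T>C and A>G difference ran from 0.0561 to 0.118, and over all its alternatives the exact permutation p ran from 0.0204 to 0.286 and the adjusted p from 0.132 to 0.686. Of 4 measures of it added after seeing the data, the median (0.1002), alleles under 1% (0.0880) and the percent of the load (11.5 points) had an exact permutation p of 0.0204, and the log2 scale (0.66) one of 0.0408, none adjusted.

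In 7 of the 25 library measures the difference changed sign under some alternative. Mutation load (-0.0270) was 0.0305 without both Thy libraries and ran from -0.0938 to 0.0398 with single libraries left out. The load of alleles under 1% (-0.00573) was 0.0362 without both Thy libraries, 0.000601 with CD45 added and 0.0157 at a threshold of 0.5%, and ran from -0.0526 to 0.0411. Leaving out 6C3 replicate 2, which leaves replicate 1 alone, gave the highest value for C>T and G>A (-0.00660 to 0.000476), complex IV (-34.0 to 0.0967), ATP synthase (-45.5 to 3.16), ribosomal RNA (-41.3 to 1.76) and synonymous alleles (-8.37 to 0.0308). In none of the 25 library measures did an alternative bring an adjusted p below 0.0952.

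DESeq2 called 2 alleles and every other fit called 0, including limma (lowest adjusted p = 0.976), the filter on the other libraries alone and edgeR without a fraction filter (48651 alleles tested). Alleles in 6C3 alone numbered 778 and 225 at a threshold of 0.5% and 2 and 1 at 2%. Those missing from 6C3 alone in replicate 1 numbered 17 at 0.5%, and in replicate 2 there was 1 at 2%. The cause was not tested. With 2 libraries of 6C3 the exact tests cannot go below 0.0204, and 0.143 with 1.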

Other observations

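The CD45 libraries, which enter only the alternative with CD45 added, had a T>C and A>G fraction of 0.157% and 0.150%, a mutation load of 0.445% and 0.418%, and a ratio of major to minor arc coverage of 1.36 and 1.39. Each value lay within the range of the 6 skeletal subsets other than 6C3 with the same replicate number.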
